A study of Mus musculus with 6 samples.

Results

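The genes described here are those of the major histocompatibility complex (MHC) class II pathway together with Ciita, the transcriptional coactivator that controls them. They were measured in mammary tumors of mice that received vehicle or a combination of VX680, miltefosine and WP1066 for 21 days. VX680 inhibits Aurora kinases, miltefosine is an alkylphosphocholine, and WP1066 inhibits JAK2 and STAT3 signalling. Each group had 3 samples, and the biotin-labelled total RNA of each was run on 1 Affymetrix mouse array. Replicate numbers used here follow the order in which the samples are listed and pair no vehicle sample with a drug sample. The labels used here name no strain, tumor model, age, dose or vehicle, and do not state whether the 3 samples of a group were separate mice or repeats of one source, so the spread between samples may be technical. The genes are H2-Aa, H2-Ab1, H2-Eb1, Cd74, H2-DMa, H2-Oa, H2-Ob and Ciita, and were picked with earlier results of the same comparison known. Their drug-against-vehicle values are therefore given as a description, with no test. Of the 8 genes, 7 had a probe set (a group of array probes for 1 transcript) that the platform annotation assigns to a single gene symbol, among 12393 genes measured in this way. H2-Ob had none, since its probe set is shared with another gene, and is not reported. The 7 genes were covered by 11 probe sets, and each gene is represented by its brightest one, judged by the mean of all 6 arrays.

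MHC class II molecules are pairs of an alpha and a beta chain that carry peptides from endosomes to the surface of antigen-presenting cells, where CD4 T cells read them. The invariant chain, encoded by Cd74, holds the new pair and blocks its groove until proteases cut it away. H2-DM then exchanges the remaining fragment for a peptide, and H2-O restrains H2-DM. Ciita does not bind DNA itself but joins factors that sit on the X and Y boxes of class II promoters. B cells, dendritic cells and activated macrophages are the best known sources of class II, and interferon gamma can induce it in epithelial and tumor cells. In whole tumor tissue, fewer cells of a type and less RNA per cell cannot be told apart.

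The median log2 value of an array was 6.70 to 6.73. All 12 measured mammary epithelial markers were at 8.33 or higher on every array, so the markers of the labelled tissue were present. Skeletal muscle transcripts varied widely between arrays, with list medians from -2.51 to 3.15 around each gene's mean, and were most abundant on vehicle replicate 3 and drug replicate 1. Without those arrays the differences of H2-Aa, H2-Ab1, Cd74, H2-DMa and H2-Eb1, described next, were -1.59, -1.76, -1.59, -0.64 and -0.23. With limma, a linear model fitted to all genes, 0 of 12393 genes (0%) reached an adjusted p under 0.05 between the groups. Without adjustment, 1275 genes (10.3%) had a limma p under 0.05, of which 609 (4.91%) were lower and 666 (5.37%) higher in drug-treated tumors.

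Transcripts of both I-A chains, the main class II pair, had, with Cd74, the largest negative differences between drug-treated and vehicle tumors among genes whose groups were separate. H2-Aa, the alpha chain, read 8.88, 8.65 and 9.28 in vehicle, against 6.32, 7.66 and 6.70 after drug treatment (log2 expression, replicates 1 to 3). The groups did not overlap, and the lowest vehicle value lay 0.99 above the highest drug value, that of drug replicate 2. The means were 8.94 ± 0.32 and 6.90 ± 0.69 (SD, n = 3 each), a difference of -2.04 ± 0.35 (limma SE) and a 4.12-fold lower mean. H2-Ab1, the beta chain that pairs with H2-Aa, read 9.07, 8.69 and 9.20 in vehicle, against 6.88, 7.71 and 6.54 after drug treatment. Here too drug replicate 2 was the highest of the treated samples and vehicle replicate 2 the lowest of the controls, with a gap of 0.99 between them. The H2-Ab1 means were 8.99 ± 0.26 and 7.04 ± 0.60 (SD, n = 3 each), which is a difference of -1.94 ± 0.30 (SE) or a 3.85-fold lower mean.

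Cd74, the chaperone of both chains, followed them closely in size. It read 9.15, 9.02 and 9.45 in vehicle, against 6.76, 7.92 and 7.08 after drug treatment, with a gap of 1.11 between the groups. Its mean was 3.88-fold lower (log2 difference -1.96 ± 0.29, SE, n = 3 per group). Within the drug group the 3 values of Cd74 spanned 1.15 on the log2 scale, or 2.23-fold, against 0.43 within vehicle. H2-Aa and H2-Ab1 also spanned more in the drug group, 1.34 and 1.16, than in vehicle, 0.63 and 0.51.

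H2-Eb1, the beta chain of the second class II molecule, I-E, differed by less. It read 5.60, 5.49 and 5.58 in vehicle, against 5.01, 5.29 and 5.34 after drug treatment. The groups were separate by 0.16, and the drug group was highest on replicate 3 rather than replicate 2. The difference was -0.34 ± 0.10 (SE, n = 3 per group), a 1.27-fold lower mean.

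**Figure D1:**
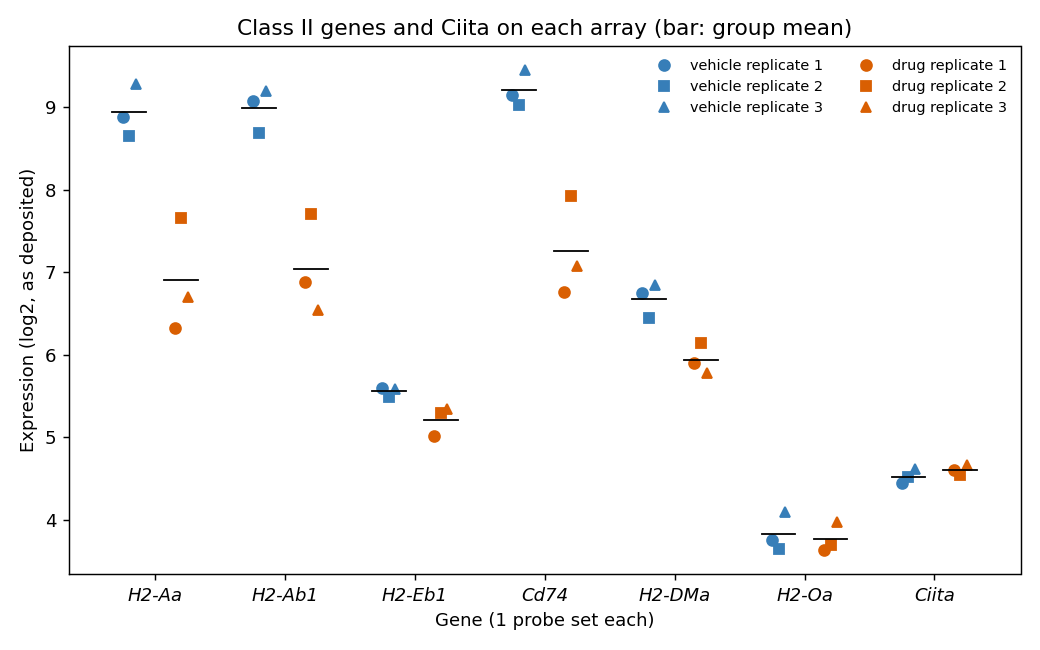
Log2 expression of the 7 genes (horizontal axis, 1 probe set each) on each array, with vehicle in blue, drug-treated in orange, symbols for the replicates and bars for the group means. H2-Aa, H2-Ab1 and Cd74 lie at 8.65 or higher in vehicle and at 7.92 or lower in drug-treated samples, while the groups of H2-Oa and Ciita overlap.

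The genes of peptide loading did not share one value. H2-DMa, the alpha chain of the peptide exchange factor, read 6.75, 6.45 and 6.84 in vehicle, against 5.90, 6.14 and 5.78 after drug treatment. Its groups were separate by 0.31, and the difference of -0.74 ± 0.13 (SE, n = 3 per group) corresponded to a 1.67-fold lower mean. H2-Oa, the alpha chain of the H2-DM inhibitor, read 3.75, 3.65 and 4.09 in vehicle, against 3.63, 3.69 and 3.97 after drug treatment. These values overlapped and differed by -0.07 ± 0.14 (SE). All of them lay below the lower quartile of the arrays, which was 4.38 to 4.46, and detection calls were not used here, so H2-Oa may lie close to background.

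Ciita itself showed no separation of the groups. Its brighter probe set read 4.44, 4.52 and 4.61 in vehicle, against 4.60, 4.54 and 4.66 after drug treatment, a difference of 0.08 ± 0.07 (SE, n = 3 per group). Its other probe set read 4.18, 4.32 and 4.65 against 4.35, 4.47 and 4.05, with a difference of -0.09 ± 0.15 (SE), so that the sign was not the same on both. Both lay near the lower quartile of the arrays.

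Of the 7 genes, 5 had all drug-treated samples below all vehicle samples, where 9.37% of all genes did. None had all drug-treated samples above, where 7.73% of all genes did. Since the genes were chosen from this contrast, the count describes them and supports nothing further. The median difference was -0.74 over the 7 genes and -0.01 over all genes. Among the 1161 genes whose drug-treated samples all lay below vehicle, H2-Aa, Cd74 and H2-Ab1 ranked 1, 2 and 3 by size of the difference, H2-DMa ranked 21 and H2-Eb1 ranked 116. The genes with a still larger negative mean difference than H2-Aa were 7 skeletal muscle genes, such as Acta1 at -3.06 ± 1.92 (SE), and their groups overlapped.

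Further probe sets gave the same picture for the I-A chains. A second H2-Aa probe set read 8.68, 8.40 and 8.90 in vehicle, against 6.11, 7.22 and 6.29 after drug treatment, a difference of -2.13 ± 0.29 (SE, n = 3 per group). The other 2 probe sets of H2-Ab1 differed by -1.74 ± 0.28 and -1.83 ± 0.30, each with separate groups. On all 5 probe sets for the I-A chains the highest treated value was that of drug replicate 2, and the lowest control value that of vehicle replicate 2. The equal numbers do not link these samples. Probe sets of 1 gene share the same RNA and are not replicates, and some of these carry a suffix for probes that can match related transcripts.

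**Figure D2:**
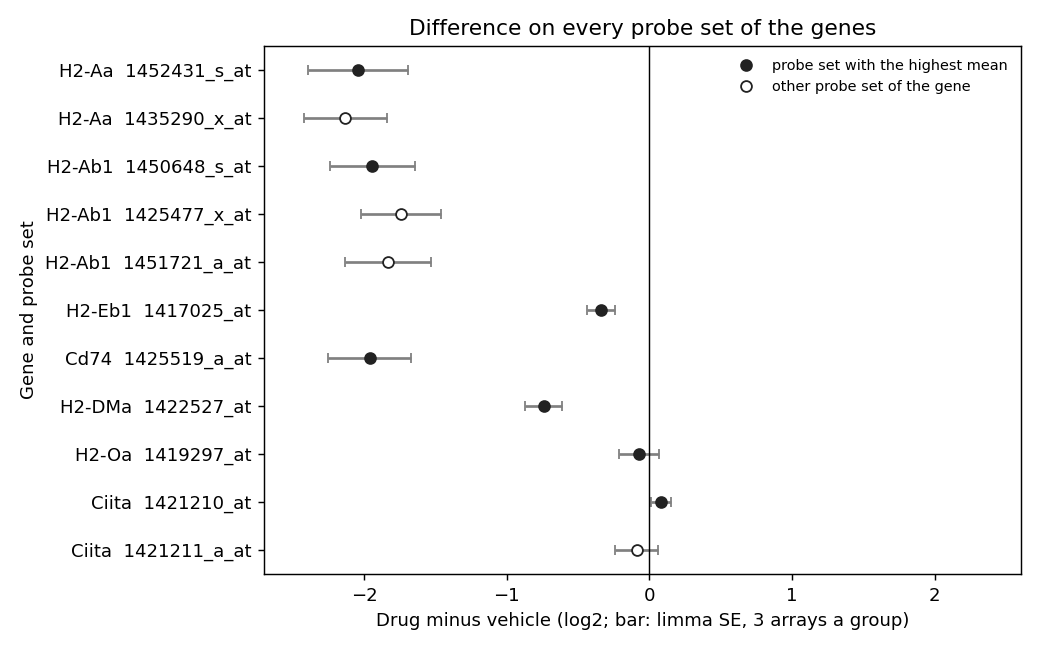
Drug minus vehicle difference (log2, horizontal axis, bars are limma SE with 3 arrays a group) for all 11 probe sets, filled for the one used per gene and open for the others. The 5 probe sets of H2-Aa and H2-Ab1 lie between -2.13 and -1.74, and the 2 of Ciita lie on either side of 0.

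The promoters show part of what the class II genes share in sequence. Promoter windows of 300 bases, 250 before and 50 after the start of transcription, were available from RefSeq (GRCm38.p6) for 5 of the 8 genes. H2-Ab1, Cd74 and Ciita had none. Each was read in the direction of the gene, on that strand only. It was searched for GCAAC, the core of the X box to which the RFX complex binds, and for GATTGG, the inverted CCAAT of the Y box bound by NF-Y. The stretches below come from H2-Aa and H2-Eb1, whose groups were separate by different amounts, and from H2-Oa, whose groups overlapped, with both cores in capitals. They lie at chr17:34287847-34287929 (minus strand), chr17:34305751-34305832 (plus strand) and chr17:34092278-34092360 (plus strand).
H2-Aa: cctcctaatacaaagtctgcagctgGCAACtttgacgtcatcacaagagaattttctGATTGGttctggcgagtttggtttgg
H2-Eb1: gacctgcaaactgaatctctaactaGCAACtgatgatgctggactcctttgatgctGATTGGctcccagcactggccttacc
H2-Oa: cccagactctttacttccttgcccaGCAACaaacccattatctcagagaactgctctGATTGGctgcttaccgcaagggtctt

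The first core began 81, 91 and 76 bases before the start of H2-Aa, H2-Eb1 and H2-Oa, and 27, 26 and 27 bases lay between the cores. H2-Ob held the same pair with 24 bases between. Neither RefSeq window of H2-DMa held such a pair, which says only that these letters did not occur together in this order on the strand read. With both strands searched, GCAAC alone occurred in 35.2% and GATTGG alone in 16.1% of 32851 promoter windows. Both together, 24 to 27 bases apart in this order, occurred in 31 windows (0.0944%). The spacing was taken from these class II promoters after they had been read. The 31 windows belonged to 29 genes, and 14 of them were measured and are not class II genes. These had a median difference of -0.03, with 2 whose treated samples all lay below vehicle, where 9.37% of all genes did. The pair was thus present at H2-Aa with a difference of -2.04, at H2-Eb1 with -0.34 and at H2-Oa with -0.07. These are too few genes to show whether the pair goes with the size of the difference.

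All the class II genes but Cd74 and Ciita lie together on chromosome 17, where genes of class I peptide supply stand between them. In RefSeq order (GRCm38.p6), 13 protein-coding genes run from H2-Oa to H2-Eb1, and 11 were measured. Of these, 9 had all drug-treated samples below all vehicle samples, including 5 of the 6 that are not class II members of the set, where 9.37% of all genes did. Psmb8 and Psmb9, subunits of the immunoproteasome, differed by -0.74 ± 0.10 and -0.53 ± 0.10, and Tap1 and Tap2, the peptide transporter, by -0.26 ± 0.07 and -0.23 ± 0.07 (SE, n = 3 per group). Brd2, a chromatin reader that is not part of antigen presentation, differed by -0.13 ± 0.06. H2-DMb2, a beta chain of H2-DM, read 4.40, 4.53 and 4.64 in vehicle, against 4.19, 4.12 and 4.52 after drug treatment, which overlapped. The 10 nearest measured genes outside that RefSeq lists as protein-coding were also read, 5 on each side. H2-Ea, described below, is not among them. Only Rxrb had separate groups, at -0.06 ± 0.05, and the others lay between -0.13 and 0.11. The region was laid out after the values had been seen.

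**Figure D3:**
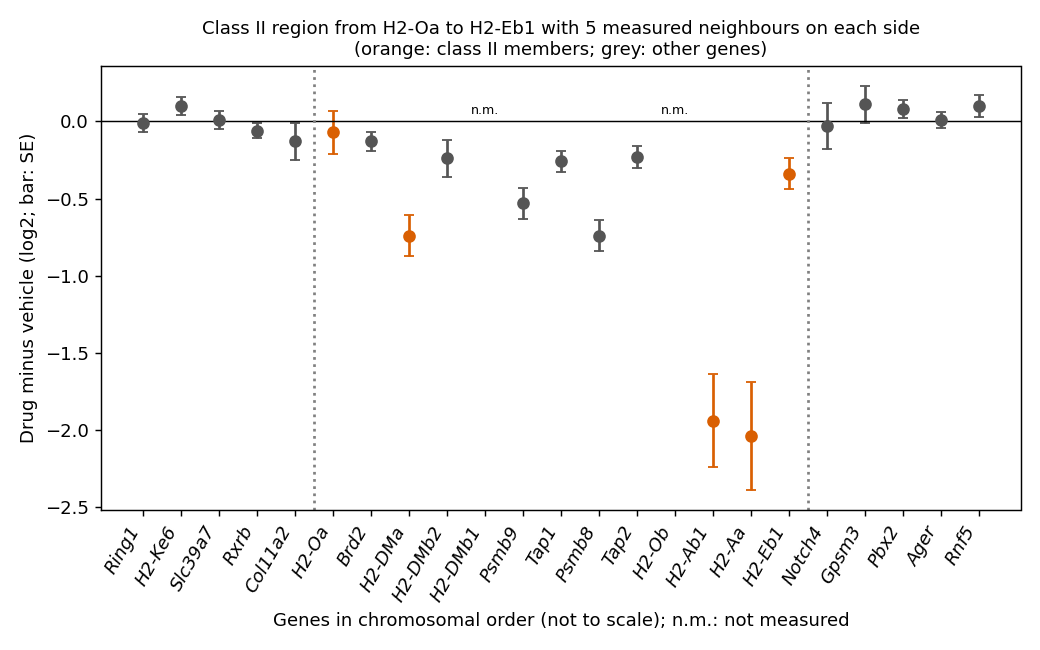
Drug minus vehicle difference (log2, bars are SE with 3 arrays a group) for protein-coding genes in chromosomal order from H2-Oa to H2-Eb1 (between the dotted lines) and 5 measured protein-coding neighbours on each side, with class II members in orange and other genes in grey. H2-Ab1 and H2-Aa reach -1.94 and -2.04, and the 10 neighbours outside lie between -0.13 and 0.11.

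Another class II chain outside the set was H2-Ea, the alpha partner of H2-Eb1. Its brightest probe set read 6.60, 6.63 and 6.93 in vehicle, against 6.80, 6.67 and 6.81 after drug treatment, a difference of 0.04 ± 0.10 (SE, n = 3 per group). A second probe set differed by -0.28 ± 0.22 and the third by -0.03 ± 0.06, both at low levels and with overlapping groups. Some mouse haplotypes make no H2-Ea transcript, and the labels used here do not give the strain.

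The factors that assemble at class II promoters showed small differences. By limma, 0 of 9 measured factors passed the adjusted threshold in either direction, and the list median was -0.02. An unadjusted p under 0.05 was reached by 1 of them, against 10.3% of all genes. All treated samples lay below vehicle for 2 of the 9, Nfyb and Crebbp, where 9.37% of all genes did. A second, dimmer Nfyb probe set also had separate groups, with a difference of -0.20 ± 0.08. Rfx5, the DNA-binding subunit that recruits Ciita to the X box, read 8.44, 8.51 and 8.24 in vehicle, against 8.07, 8.13 and 8.24 after drug treatment. The groups of Rfx5 met at 8.24, and the difference was -0.25 ± 0.09 (limma unadjusted p = 0.0279, adjusted p = 0.441). Its partners Rfxap and Rfxank differed by 0.05 ± 0.06 and 0.04 ± 0.08, and the NF-Y subunits Nfya, Nfyb and Nfyc by -0.02 ± 0.08, -0.11 ± 0.05 and -0.05 ± 0.05 (SE, n = 3 per group). Creb1, which binds beside the X box, differed by -0.02 ± 0.09, and the coactivators Crebbp and Kat2b by -0.04 ± 0.05 and 0.09 ± 0.08.

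Genes that control Ciita or carry the interferon gamma signal to it were lower in mean in 10 of 13 measured cases, where 52.1% of all genes were. By limma, 0 passed the adjusted threshold in either direction, and 3 had an unadjusted p under 0.05, each with a lower mean and separate groups. Of all genes, 4.91% were lower at that p and 9.37% had all treated samples below vehicle. Irf8, a factor of myeloid and B cells, read 7.07, 7.01 and 7.02 in vehicle, against 6.66, 6.71 and 6.49 after drug treatment, a difference of -0.42 ± 0.07 (limma unadjusted p = 0.000772, adjusted p = 0.267). Its second probe set differed by -0.37 ± 0.12, also with separate groups. Irf1, which acts on the interferon-inducible Ciita promoter, read 8.33, 8.52 and 8.50 against 7.92, 8.09 and 8.18, a difference of -0.39 ± 0.09 (limma unadjusted p = 0.0043, adjusted p = 0.341). Socs1, an interferon-induced inhibitor of JAK signalling, read 5.05, 5.08 and 5.09 against 4.91, 4.88 and 4.84, a difference of -0.20 ± 0.05 (limma unadjusted p = 0.00644, adjusted p = 0.364).

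The ligand and receptor of that signal had overlapping groups. Ifng was at 2.54 ± 0.21 in vehicle and 2.51 ± 0.19 in drug-treated samples (SD, n = 3 each), in the lowest part of the scale, where a difference was not detectable with these arrays. The receptor chains Ifngr1 and Ifngr2 differed by 0.05 ± 0.07 and 0.00 ± 0.06, and the kinases Jak1 and Jak2 by -0.05 ± 0.06 and -0.08 ± 0.09 (SE, n = 3 per group). A second, dimmer Jak2 probe set had separate groups and a difference of -0.21 ± 0.10. Irf2, Irf4, Usf1 and Spi1, which also act on Ciita promoters or in its cells, differed by -0.01 ± 0.10, 0.08 ± 0.07, -0.09 ± 0.06 and -0.17 ± 0.10. Prdm1, a repressor of Ciita in plasma cells, differed by 0.17 ± 0.11.

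The endosomal enzymes that prepare the groove and the peptides had differences close to 0. All 9 were measured, the list median was -0.02, and by limma 0 passed the adjusted threshold in either direction. Ctsl, a cathepsin that cuts the invariant chain in some tissues, was the 1 member with an unadjusted p under 0.05, and its mean was higher, by 0.22 ± 0.07 (limma unadjusted p = 0.0147, adjusted p = 0.398). The range over the list was -0.13 to 0.22.

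Cd83, a membrane protein that stabilises class II at the cell surface, had the array pattern of the I-A chains within the drug group. It read 5.42, 5.19 and 5.45 in vehicle, against 4.44, 5.25 and 4.54 after drug treatment, so that drug replicate 2 reached the vehicle range and the other treated samples did not. The difference was -0.61 ± 0.22 (limma unadjusted p = 0.0272, adjusted p = 0.438). The costimulation list also holds the inhibitory ligands Cd274 and Pdcd1lg2, which differed by -0.22 ± 0.11 and -0.20 ± 0.09 with overlapping groups. Its median was -0.13 over 6 members, all with lower means, where 52.1% of all genes had them. By limma 0 passed the adjusted threshold and 1 the unadjusted one, against 10.3% of all genes. That member, Cd86, a ligand of CD28, read 4.89, 4.76 and 4.88 against 4.49, 4.57 and 4.61, a difference of -0.29 ± 0.06 (limma unadjusted p = 0.00288, adjusted p = 0.297). A second Cd86 probe set had overlapping groups and a difference of -0.39 ± 0.24. The costimulation median moved to -0.05 when vehicle replicate 3 and drug replicate 1 were left out together.

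Class I presentation genes were lower in mean in all 10 measured cases, with 9 whose groups were separate, where 52.1% and 9.37% of all genes were. Their differences ran from -0.74 to -0.12 with a median of -0.20. By limma, 0 passed the adjusted threshold and 7 had an unadjusted p under 0.05, all lower, against 4.91% of all genes. B2m, the light chain of class I, differed by -0.21 ± 0.05 (SE, n = 3 per group). The I-A chains and Cd74 thus had differences beyond the whole class I range, H2-DMa equalled its lowest member, Psmb8, and H2-Eb1 lay inside it. No test of the difference between the lists was made.

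**Figure D4:**
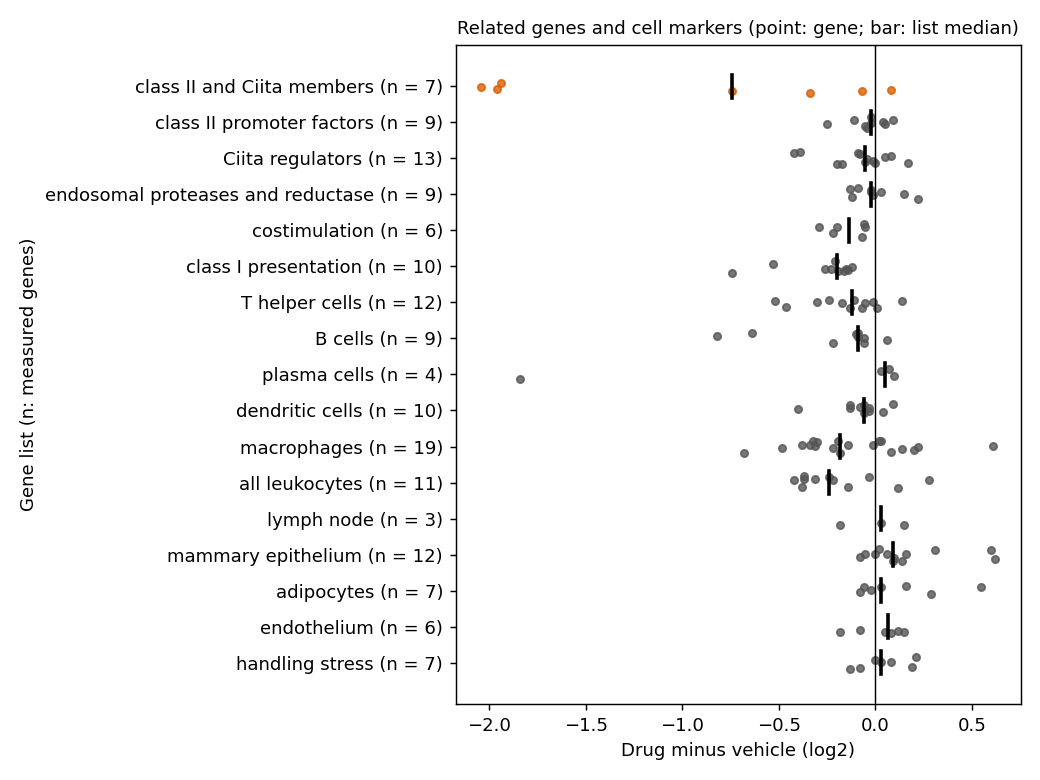
Drug minus vehicle difference (log2, horizontal axis) of each measured gene, a point each, for the class II set (orange) and for related gene and cell marker lists (grey), with bars at the list medians. The class II median is -0.74, the all-leukocyte median -0.24 and the class I median -0.20.

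Markers of the cells that carry class II were compared on the same arrays. Of 11 genes expressed by all leukocytes, 9 had lower means and 3 had all treated samples below vehicle, with a median of -0.24. Over all genes these shares were 52.1% and 9.37%, and 4.91% were lower and 5.37% higher at an unadjusted limma p under 0.05. By limma 0 passed the adjusted threshold, while 5 lower and 1 higher had an unadjusted p under 0.05. Ptprc, the leukocyte phosphatase CD45, read 8.97, 8.73 and 9.05 in vehicle, against 8.62, 8.57 and 8.30 after drug treatment, a difference of -0.42 ± 0.12 (limma unadjusted p = 0.0108, adjusted p = 0.382). The summed level of the list (log2 of the sum of linear values) was 12.00 to 12.16 in vehicle and 11.91 to 12.12 in drug-treated samples. Bright genes weigh most in such a sum. The brightest here, Lcp1, was the 1 higher at that unadjusted p, by 0.28 ± 0.11. No marker can be called absent, since a value of 0 does not occur on this scale.

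The antigen-presenting cell types differed among their markers. Of 19 macrophage markers 12 had lower means and 3 had all treated samples below vehicle, where 52.1% and 9.37% of all genes did. Their median was -0.18, with a summed level of 13.83 to 14.16 in vehicle and 13.70 to 13.99 in drug-treated samples. Aif1 and Fcgr1, both macrophage genes induced by activation, differed by -0.68 ± 0.19 and -0.48 ± 0.12 (SE, n = 3 per group). The other 7 markers had higher means, up to 0.61 ± 0.48 for Cd163, a scavenger receptor, and 0.22 ± 0.46 for Mrc1, the mannose receptor, with overlapping groups. The macrophage median was -0.09 without drug replicate 3, -0.10 without vehicle replicate 1 and -0.27 without vehicle replicate 2. Cx3cr1, a chemokine receptor, differed by -0.34 ± 0.14, but a second, dimmer probe set had the opposite sign. Of 10 dendritic cell markers 8 had lower means, with a median of -0.06 and a summed level of 8.47 to 9.00 against 8.40 to 8.69. The 1 marker with separate groups was Itgax, the integrin chain CD11c, at -0.40 ± 0.14. A count of 1 in 10 is near the 9.37% of all genes with treated samples all below vehicle. With vehicle replicate 3 left out the dendritic cell median was 0.00, and with vehicle replicates 1 or 2 left out it was -0.09 or -0.14. By limma, 0 members of either list passed the adjusted threshold. At an unadjusted p under 0.05 there were 3 macrophage and 1 dendritic cell genes, all lower, where 4.91% of all genes were.

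Of 9 measured B cell markers 8 had lower means, none with separate groups, where 52.1% and 9.37% of all genes did. Only 2 of the 9 had a mean of at least 5. The rest had means near or below the lower quartile of the arrays, so a lower level may not show in them. The list median was -0.09. Leaving out vehicle replicate 3 moved that median to -0.02, and leaving out vehicle replicates 1 or 2 moved it to -0.19 or -0.16. By limma 0 passed, with 0 at an unadjusted p under 0.05. Vehicle replicate 3 stood apart here, since Ms4a1, the B cell antigen CD20, read 3.47, 3.72 and 5.84 in vehicle, against 3.43, 3.59 and 3.54 after drug treatment. Cd79b, a chain of the B cell receptor, read 4.31, 4.19 and 5.58 against 4.40, 3.80 and 3.98. That array was also the highest vehicle array for H2-Aa, H2-Ab1, Cd74 and H2-DMa, and without it their differences were -1.87, -1.84, -1.83 and -0.66, in that order. The summed B cell level was 9.21 to 9.33 in vehicle and 9.16 to 9.20 in drug-treated samples. Blnk, at 8.36 or higher on every array, weighs most in that sum and differed by 0.06 ± 0.09. Jchain, the joining chain of plasma cell immunoglobulin, read 6.28, 6.15 and 5.40 against 3.50, 4.58 and 4.22, a difference of -1.84 ± 0.33 (SE, n = 3 per group) with separate groups. The immunoglobulin genes Igkv8-30 and Igha differed by -1.94 ± 0.19 and -1.93 ± 0.45, also with separate groups, and with Jchain ranked 4 to 6 among genes whose treated samples all lay below vehicle, directly after the I-A chains and Cd74. The other plasma cell genes measured were Xbp1, Sdc1 and Tnfrsf17, at 0.07 ± 0.14, 0.10 ± 0.08 and 0.03 ± 0.09, so that the median of the 4 was 0.05. Xbp1 and Sdc1 lay at 9.50 or higher on every array and are also made by epithelial cells, and Tnfrsf17 lay at 3.38 or lower.

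A list of T helper cell genes was also compared, which includes chains of the T cell receptor complex that are not particular to CD4 cells. Of 12 measured genes of this list 10 had lower means and 4 had all treated samples below vehicle, where 52.1% and 9.37% of all genes did. Only 3 of the 12 had a mean of at least 5. The list median was -0.12. By limma 0 passed the adjusted threshold and 4 had an unadjusted p under 0.05, all lower, against 4.91% of all genes. Cd3d, which belongs to the CD3 complex of the T cell receptor, read 5.15, 5.14 and 5.41 in vehicle, against 4.73, 4.80 and 4.62 after drug treatment, a difference of -0.52 ± 0.09 (limma unadjusted p = 0.00104, adjusted p = 0.267). Cd3g and Cd5 differed by -0.46 ± 0.14 and -0.24 ± 0.08 (SE, n = 3 per group), also with separate groups. Cd4 itself read 5.94, 6.11 and 6.12 in vehicle, against 5.98, 5.69 and 5.59 after drug treatment. Its groups overlapped, with a difference of -0.30 ± 0.11 (limma unadjusted p = 0.0322, adjusted p = 0.46). The list median was -0.07 without drug replicate 3.

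Among other tissues, lymph node, adipocyte, endothelial and handling stress markers had medians of 0.03, 0.03, 0.07 and 0.03, and mammary epithelial markers 0.09. Lymph node medians ranged from -0.18 to 0.28 with 1 array left out, and adipocyte medians from -0.34 to 0.76. Krt14 and Krt5, basal keratins, were the epithelial markers with the largest differences, 0.60 ± 0.11 and 0.62 ± 0.17 (SE, n = 3 per group). Skeletal muscle markers had a median of -1.96, with a summed level of 10.89 to 14.42 in vehicle and 9.38 to 13.72 in drug-treated samples and with no separate groups among 12 genes. That median ran from -3.45 without drug replicate 1 to -0.97 without vehicle replicate 3, and was -2.98, -1.13 and -1.22 without vehicle replicate 2, drug replicate 3 and drug replicate 2.

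When each array was expressed relative to its all-leukocyte list median, a scaling added after the data were seen, H2-Aa, H2-Ab1 and Cd74 still differed by -1.82, -1.72 and -1.73, and H2-DMa by -0.51. Relative to the macrophage list these were -1.88, -1.79, -1.80 and -0.58, and relative to the dendritic cell list -1.98, -1.88, -1.89 and -0.68. The count of genes with separate groups was 4 in place of 5 under each of the 3 scalings, and the gene that lost its separation was H2-Eb1, at -0.12, -0.18 and -0.28. H2-Oa then differed by 0.16, 0.09 and -0.01 and Ciita by 0.30, 0.24 and 0.14. Whether a subset of leukocytes not marked by these lists differed was not tested.

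**Figure D5:**
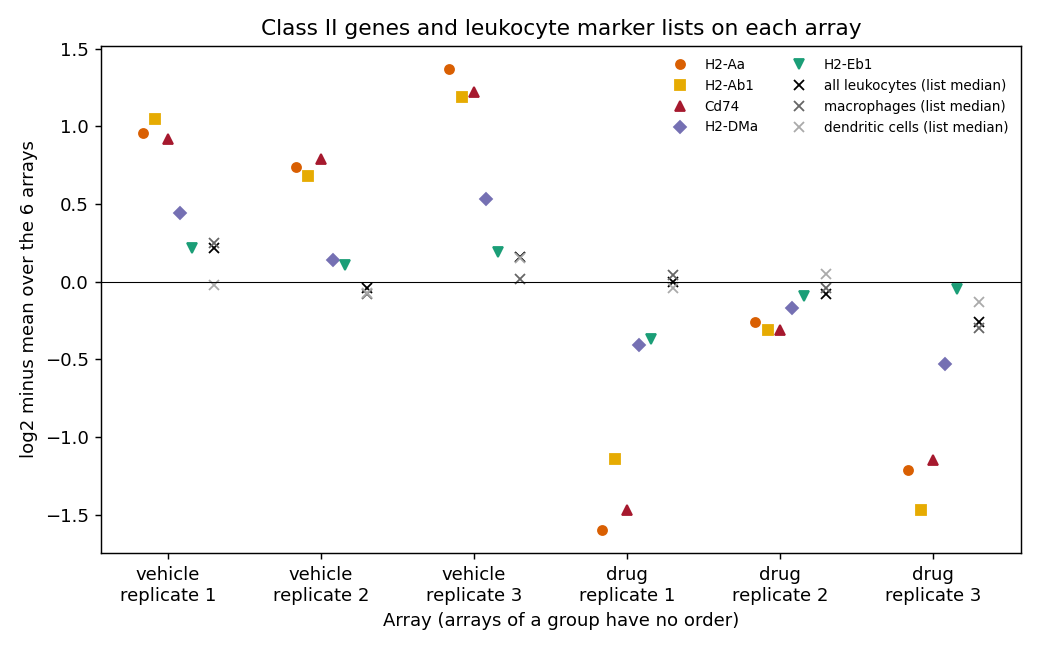
Log2 expression minus the gene's mean over the 6 arrays (vertical axis) for 5 class II genes (coloured symbols) and for the medians of 3 leukocyte marker lists (crosses), by array. H2-Aa, H2-Ab1 and Cd74 run from 1.37 to -1.60, and the crosses lie between 0.25 and -0.30.

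The 3 treated samples were not alike. Drug replicate 2 had the highest treated value for 4 of 7 genes, where 32.4% of all genes had theirs there, and its values of H2-Aa, H2-Ab1 and Cd74 were -0.26, -0.31 and -0.31 after centring each gene over the 6 arrays, against -1.60 to -1.14 on the other treated arrays. Vehicle replicate 2 was the lowest control for 6 of 7 genes, where 29.6% of all genes were. The leukocyte list medians, centred in the same way, varied less and differed in order from list to list. On the treated arrays the all-leukocyte median was 0.00, -0.08 and -0.26 and the macrophage median 0.04, -0.04 and -0.30 for replicates 1 to 3. The dendritic cell median was highest on drug replicate 2, at -0.04, 0.05 and -0.13, as was the T helper median, at -0.07, -0.01 and -0.09. Among the controls the all-leukocyte, macrophage and dendritic cell medians were all lowest on vehicle replicate 2, at -0.04, -0.08 and -0.07. The adipocyte median was -0.36, 1.18 and -0.48 on the treated arrays, also highest on drug replicate 2. The part of these cells in that array's values was not tested.

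The genes outside the set with the most similar profile were found by the root mean square difference from the mean profile of H2-Aa, H2-Ab1, H2-Eb1 and Cd74, over the 6 arrays and after centring each gene. Because the measure includes the difference between the groups, these genes are a description as well. The nearest was Foxa1, a luminal transcription factor, at a root mean square difference of 0.212 log2 units. It read 6.18, 6.11 and 6.60 in vehicle, against 4.74, 5.52 and 5.04 after drug treatment, so that drug replicate 2 was again highest and vehicle replicate 2 lowest. Next were Igkv8-30, an immunoglobulin light chain segment, at 0.31, Stk26, a protein kinase, at 0.406, and Jchain at 0.43. Zdhhc2, a palmitoyltransferase, Cxcl10, a chemokine induced by interferon gamma, Pou2af1, a B cell coactivator, and Plagl1, a zinc finger factor, lay between 0.451 and 0.466. By the same measure Cd74 lay at 0.208, H2-Ab1 at 0.249 and H2-Aa at 0.277, while H2-DMa lay at 0.459, H2-Eb1 at 0.665, H2-Oa at 0.816 and Ciita at 0.884. H2-Aa, H2-Ab1, H2-Eb1 and Cd74 are part of the mean profile, so their distances from it are partly built in. The measure counts size as well as shape, so a gene whose difference is larger or smaller than that of the mean profile lies farther.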

How the data were processed

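Total RNA of 6 mammary tumor samples was measured on Affymetrix arrays. The deposited table holds the authors' log2 expression for 22690 probe sets. Affymetrix Expression Console is named in the submitters' processing notes. How it summarised and normalized the probes is not given in the sources used here, and the range of the values, 1.88 to 14.14, was taken to show base 2. Values were used as deposited, and normalization that equalises arrays can hide a shift shared by most genes. Symbols came from the platform annotation of 2016, which gives 20380 probe sets 1 symbol, 691 several and 1555 none, and 64 are controls. For 4956 genes with several probe sets the one with the highest mean was kept.

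Groups were compared with limma 3.58.1 in R 4.3.3 (lmFit, eBayes, two-sided, Benjamini-Hochberg over 12393 genes, threshold 0.05) without filter or covariate, and the fit was tested on simulated data. The genes and the 19 lists were chosen with earlier results of these data known. Text names all class II members, any promoter factor, Ciita regulator or other class II chain, the 3 genes per remaining list with the smallest unadjusted p, and the 8 nearest profiles. Brd2, Tap1, Tap2, Rxrb, Cd4, Cd163, Mrc1, Igha, Tnfrsf17, Lcp1, Blnk, Gsta3, Serpinb2 and Slc2a9 were named after their values were seen. Standard errors are limma's moderated ones. Alternatives were the mean of probe sets, a level filter, other normalizations, variance models and weights, and arrays left out. Figures used matplotlib 3.10.9.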

Additional observations from a re-analysis of the deposited data

How the results depend on the processing

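No paired analysis was possible because the labels carry no replicate numbers, and those used here are the order of listing. Leaving out 1 array at a time gave 0 to 3 genes past limma's adjusted threshold, the 3 (Gsta3, Serpinb2 and Slc2a9) without drug replicate 2, and 0 under the 7 other refits, with 978 to 1361 genes at an unadjusted p under 0.05 over all refits. The median class II difference was -0.85 to -0.66 with 1 array left out. It was -1.94 with only genes at a mean of at least 5, which leaves 5 of the 7 genes, and -0.51 relative to the all-leukocyte median. No sign of H2-Aa, H2-Ab1, H2-Eb1, Cd74 or H2-DMa turned in the 16 alternatives run for each, over which H2-Aa ran from -2.43 to -1.59, H2-Ab1 from -2.28 to -1.70 and Cd74 from -2.29 to -1.59. H2-Oa ran from -0.17 to 0.16 and Ciita from -0.01 to 0.30. With 3 arrays a group and no detection calls, differences of low transcripts such as Ciita and H2-Oa are not resolved.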
